A study of Homo sapiens with 8 samples.

Results

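Solute carrier (SLC) transporters are membrane proteins that move amino acids, sugars, ions, nucleosides, vitamins and other small molecules across the plasma membrane and the membranes of organelles. Members were all gene names made of SLC, a family number, the letter A and a member number, so that SLCO genes, pseudogenes and families with other letters were left out. The rule found 194 genes of 44 families among the 12058 gene names of the deposited table. Of these, 182 were listed for HUH7 and 57 for PLC/PRF/5, with 45 in both. The RefSeq annotation of GRCh38.p14 holds 347 protein-coding symbols of this form, and all 194 members were current symbols there.

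Carriers work as uniporters, which let a solute follow its gradient, as cotransporters, which draw on the gradient of sodium or protons, or as exchangers, which swap solutes. Hepatocytes use them to take up bile acids, drugs, sugars and amino acids from the blood, and tumour cells depend on amino acid and glucose carriers for growth. N6-methyladenosine (m6A) is a mark on mRNA that is laid down during transcription and affects the processing, stability and translation of the transcript.

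The study compared parental HUH7 and PLC/PRF/5 cells, lines established from human hepatocellular carcinoma, with cells of the same line after CRISPR-Cas9 knockout of CSTF2. The CSTF2 protein is part of the complex that helps to cleave pre-mRNA at its 3′ end. For each line and genotype there was a library of RNA precipitated with an m6A antibody (IP) and a library of the input RNA, 8 libraries in all and 1 per group, and the labels do not say whether a knockout line was 1 clone. With 1 library per group no difference could be tested, so each value is given as a description of these libraries.

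The values were the authors' deposited log2 fold changes, 1 per gene in HUH7 and 1 or more per gene in PLC/PRF/5, where each value was taken as a peak. The table does not state whether the knockout is the numerator. Signs are therefore given as deposited, without saying which genotype was higher. Read counts and peak positions were not analysed here, so the depth behind each value is unknown, and no position within a transcript or sequence at a peak could be given. Of 10 hepatocyte markers, 7 were listed in HUH7, with a median log2 fold change of -0.084, and 7 in PLC/PRF/5, with ALB in PLC/PRF/5 alone. Of 10 markers of other cell types, 7 were listed in HUH7, with a median log2 fold change of 0.92, and 3 in PLC/PRF/5. Their part in the values below was not tested, and being listed does not give an expression level. CSTF2 was not listed in HUH7 and had, in the authors' deposited table, 1 peak at -0.50 in PLC/PRF/5, which is no check of the knockout.

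In HUH7, SLC genes lay close to the whole column. Of 182 members, 115 were positive and 67 negative, so that 63.2% were positive, beside 60.8% of all 10447 genes. The median log2 fold change was 0.20 for the members and 0.20 for all genes. A log2 fold change of at least 1 in size, that is a factor of at least 2, was reached by 61 members, 38 positive and 23 negative. This share of 33.5% stands beside 36.9% of all genes. In the positive direction 22.2% and in the negative direction 14.6% of all genes passed this fold.

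A part of the large values came in fixed steps. In the HUH7 column 1315 genes held 1 of 16 values, each shared by at least 10 genes to 6 decimals, called repeated values here. Among the members 21 genes (11.5%) held a repeated value, 6 positive and 15 negative, beside 12.6% of all genes. Without repeated values, 40 of 161 members (24.8%) were at least 1 in size, beside 27.8% of all 9132 such genes. Of these 32 were positive, beside 20.1% of all such genes, and 8 negative, beside 7.72%. The remaining members ran from the nucleotide sugar carrier SLC35A3 at -3.17 to SLC49A3 at 4.99 in the authors' deposited table. Just inside the threshold lay SLC36A1 (1.05) and SLC7A7 (1.06), and just outside it SLC26A11 (0.99), SLC25A18 (0.95) and SLC6A4 (-0.95) in the authors' deposited table.

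**Figure D1:**
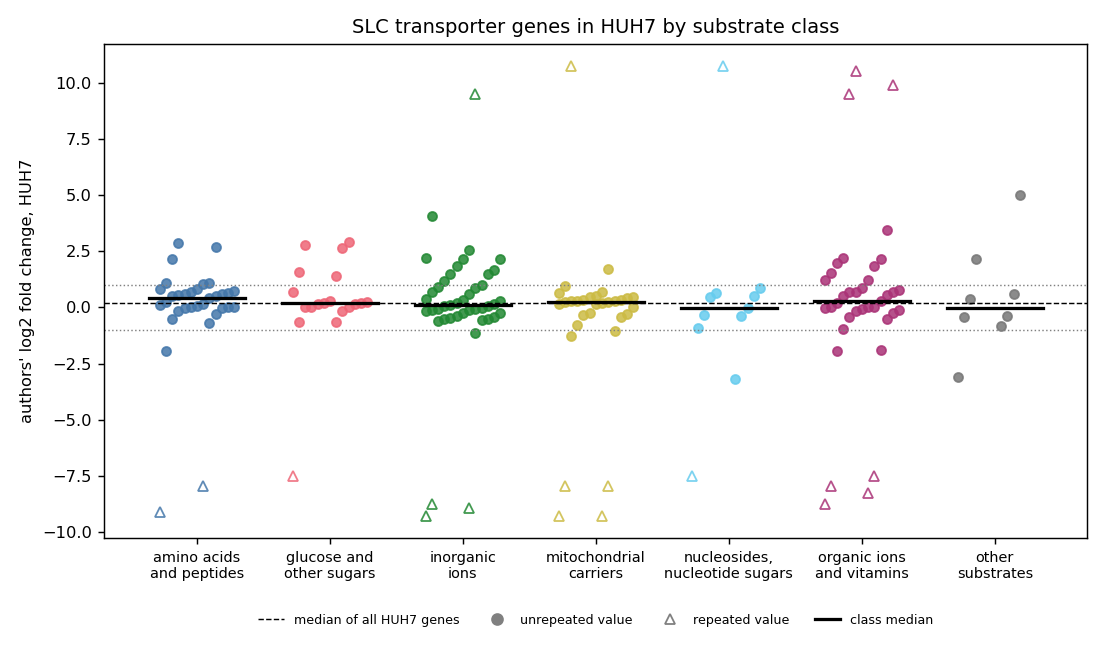
Log2 fold changes of the 182 SLC genes listed in HUH7, as deposited by the authors, by substrate class. Filled circles are unrepeated and open triangles repeated values, black bars are class medians, the dashed line is the median of all genes (0.20) and dotted lines mark 1 and -1. Most genes of every class lie between the dotted lines, and the 21 triangles lie at 9.50 or above or at -7.53 or below.

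Of 33 amino acid and peptide carriers listed in HUH7, 24 (72.7%) were positive and 9 negative, beside 60.8% positive among all genes, with a median log2 fold change of 0.43. An absolute value of 1 or more was given for 9 (27.3%), beside 36.9% of all genes, with 6 positive and 3 negative. The class supplies cells with the building blocks of proteins and with cystine for glutathione.

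The SLC7 family holds cationic amino acid carriers and the light subunits of heteromeric exchangers. SLC7A2, a carrier of arginine and lysine, was given 2.67 and the related SLC7A4 1.10 in the authors' deposited table. SLC7A1, the widely expressed arginine carrier, held the repeated value -9.11 in the authors' deposited table. The unrepeated values of these cationic carriers were thus both positive, and the negative one was a repeated value that 108 genes of the column held.

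Among the light subunits, SLC7A5, which imports leucine and other large neutral amino acids, stood at -1.93 in the authors' deposited table. It lies on chromosome 16, 87830023 to 87869507 (GRCh38), and its value sits at percentile 10.2 of the HUH7 column. SLC7A5 also has pseudogene copies of similar sequence, so reads of the gene may be shared with them. The other light subunits were positive, with SLC7A7 at 1.06, SLC7A11, the cystine importer, at 0.69, SLC7A6 at 0.64 and SLC7A10 at 0.52 in the authors' deposited table. SLC3A2, the heavy subunit that carries most of these light subunits to the membrane, was at -0.05 in the authors' deposited table. Of the 7 unrepeated SLC7 values, that of SLC7A5 was the 1 negative value, and no test of this difference was possible.

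In the sodium- and chloride-coupled SLC6 family, the GABA carrier SLC6A13 had 2.85 and the orphan carrier SLC6A16 2.15 in the authors' deposited table. SLC6A11, also a GABA carrier, had -0.68 in the authors' deposited table. In the authors' deposited table, SLC6A19 for neutral amino acids (0.84), SLC6A9 for glycine (0.49) and SLC6A6 for taurine (0.11) lay between them. Glutamate and neutral amino acid carriers of the SLC1 family stayed under 1. In the authors' deposited table SLC1A3 was at 0.60, SLC1A4 at 0.55, the glutamine carrier SLC1A5 at 0.061 and SLC1A7 at -0.17. The 5 SLC38 neutral amino acid carriers with unrepeated values ran from -0.28 for SLC38A11 to 0.61 for SLC38A4 in the authors' deposited table, and the lysosomal SLC38A7 held the repeated value -7.94. SLC66A1, which exports cationic amino acids from lysosomes, was at -0.51 in the authors' deposited table.

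Sugar carriers split by family in HUH7, with large values among the SLC2 facilitative hexose transporters and values near 0 in the SLC37 sugar phosphate family. Of 19 genes of the class, 15 (78.9%) were positive and 4 negative, beside 60.8% positive among all genes. The median log2 fold change was 0.17. An absolute value of 1 or more was reached by 6 genes (31.6%), of which 5 were positive, beside 36.9% of all genes. SLC2A1, the main glucose importer of many proliferating cells, had 2.66 in the authors' deposited table, a 6.33-fold difference at percentile 91.4 of the column. It lies on chromosome 1, 42925353 to 42958868 (GRCh38).

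The insulin-responsive transporter SLC2A4 had 2.90, SLC2A11 2.76 and the myo-inositol carrier SLC2A13 1.55 in the authors' deposited table. In contrast, SLC2A6 and the intracellular SLC2A8 were at 0.14 and 0.0079, and SLC2A10 held the repeated value -7.53 in the authors' deposited table. SLC2A14 had -0.16 in the authors' deposited table, but it is a near copy of SLC2A3, so this value is uncertain. Among sodium-coupled carriers SLC5A10 had 1.41, the myo-inositol carrier SLC5A3 0.68, the renal glucose carrier SLC5A2 0.14 and SLC5A9 -0.66 in the authors' deposited table. The 4 SLC37 genes, among them the glucose-6-phosphate carrier SLC37A4 of the endoplasmic reticulum, all lay between 0.0006 and 0.21. SLC45A3 was at -0.64 in the authors' deposited table.

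Inorganic ion carriers were the largest class and included the second highest unrepeated value of all members. Of 43 genes listed in HUH7, 24 (55.8%) were positive and 19 negative, beside 60.8% positive among all genes. The median log2 fold change of the class was 0.083. An absolute value of 1 or more was found for 15 genes (34.9%), 11 positive and 4 negative, beside 36.9% of all genes.

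The zinc carriers are 2 families with opposed roles: SLC39 proteins bring zinc into the cytosol and SLC30 proteins remove it. The importer SLC39A10 had 4.06 in the authors' deposited table, a 16.7-fold difference, and lies on chromosome 2, 195613029 to 195737700 (GRCh38). SLC39A5, an importer of liver and gut, followed at 2.54 in the authors' deposited table. SLC39A9 (0.87), SLC39A11 (0.70), SLC39A7 (0.39), SLC39A3 (0.33), SLC39A14 (-0.11) and SLC39A6 (-0.53) were smaller, while SLC39A13 (-8.75) and SLC39A4 (-9.27) held repeated values in the authors' deposited table. Among the 10 importers 6 (60%) were positive and 4 negative, beside 60.8% positive among all genes. Their median was 0.36, and without the repeated values they ran from -0.53 to 4.06.

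Of the zinc exporters, SLC30A1, the exporter of the plasma membrane, had 2.14 in the authors' deposited table. SLC30A4 held the repeated value 9.50, and SLC30A5 (0.91), the manganese exporter SLC30A10 (0.083), SLC30A9 (-0.078) and SLC30A6 (-0.41) lay below 1 in the authors' deposited table. Of these 6 genes 4 (66.7%) were positive, with a median of 0.50, beside 60.8% positive among all genes. Without repeated values the median was 0.083 for 5 exporters and 0.55 for 8 importers. The medians of both families were thus above 0, but which was higher depended on the repeated values. MTF1, the zinc-sensing transcription factor that activates SLC30A1, was at 0.99 in the authors' deposited table.

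The iron exporter SLC40A1 (ferroportin) had 1.50 and the divalent metal importer SLC11A2 1.16 in the authors' deposited table. Of the iron-regulatory proteins, which bind such transcripts, ACO1 was at -1.72 and IREB2 at 0.38 in the authors' deposited table. The magnesium carrier SLC41A1 had 2.14 and its relative SLC41A2 -0.38 in the authors' deposited table.

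Chloride and proton carriers also took both signs. Of 6 cation-chloride cotransporters of the SLC12 family, SLC12A9 was positive at 2.19 and SLC12A8 was at -1.15 in the authors' deposited table. The other 4, among them the sodium-potassium-chloride cotransporter SLC12A2 (-0.26 in the authors' deposited table), were negative and below 1 in size. That leaves 1 positive member of 6 (16.7%) in the family, beside 60.8% positive among all genes. Among sodium-proton exchangers SLC9A3, of the apical membrane of gut and kidney cells, had 1.50, SLC9A8 -0.16 and SLC9A7 -0.56 in the authors' deposited table. The sulfate carrier SLC26A2 was at 1.65 in the authors' deposited table. The 8 listed bicarbonate, phosphate and copper carriers of families SLC4, SLC20, SLC31 and SLC34 stayed between -0.58, the value of SLC34A3, and 0.18. SLC24A1, a sodium-calcium exchanger, held the repeated value -8.94 in the authors' deposited table.

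Mitochondrial carriers of the SLC25 family had few large unrepeated values. Of 31 genes 20 (64.5%) were positive and 11 negative, beside 60.8% positive among all genes. The median log2 fold change was 0.23. An absolute value of 1 or more was given for 8 genes (25.8%), beside 36.9% of all genes, but 5 of these were repeated values. Without them 3 of 26 genes (11.5%) passed the fold, beside 27.8% of all unrepeated genes. These carriers move nucleotides, phosphate, amino acids and cofactors across the inner mitochondrial membrane.

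SLC25A29, a carrier of basic amino acids, had 1.69 in the authors' deposited table. SLC25A26 imports S-adenosylmethionine, the methyl donor of methylation reactions, and was at -1.26 in the authors' deposited table. Below the fold lay the glutamate carrier SLC25A18 (0.95), the ATP-magnesium/phosphate carrier SLC25A25 (0.65), the carnitine-acylcarnitine carrier SLC25A20 (-0.80) and the glycine carrier SLC25A38 (-0.45) in the authors' deposited table. Of the ADP/ATP carriers, SLC25A6 had 0.69 in the authors' deposited table, and SLC25A4 and SLC25A5 were not listed. A further 18 unrepeated genes lay between -0.35 and 0.49. Repeated values belonged to the uncoupling protein gene SLC25A27 (10.73), the peroxisomal carrier SLC25A17 (-7.94), SLC25A35 (-7.94), SLC25A30 (-9.27) and the NAD carrier SLC25A51 (-9.27) in the authors' deposited table.

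Nucleoside and nucleotide sugar carriers had 5 positive (45.5%) and 6 negative genes in HUH7, beside 60.8% positive among all genes. The median log2 fold change of the class was -0.030. SLC35A3, which brings UDP-N-acetylglucosamine into the Golgi for glycosylation, had the lowest unrepeated value of all members at -3.17 in the authors' deposited table. It lies on chromosome 1, 99969996 to 100035634 (GRCh38). The UDP-galactose carrier SLC35A2 held the repeated value -7.53, the CMP-sialic acid carrier SLC35A1 had -0.37, and SLC35A4 and SLC35A5 had 0.65 and 0.48 in the authors' deposited table. Nucleoside carriers ran from SLC29A3 (-0.35), which acts in lysosomes, through the plasma membrane forms SLC29A1 (0.47) and SLC29A2 (0.87) to SLC29A4 at the repeated value 10.73 in the authors' deposited table. The vesicular nucleotide carrier SLC17A9 was at -0.91 in the authors' deposited table.

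Of 37 organic ion and vitamin carriers listed in HUH7, 23 (62.2%) were positive and 14 negative, beside 60.8% positive among all genes. The median log2 fold change was 0.30. An absolute value of 1 or more was given for 17 genes (45.9%), 11 positive and 6 negative, beside 36.9% of all genes. Repeated values made up 7 of the 17, and 10 of 30 genes (33.3%) passed without them, beside 27.8% of all unrepeated genes. The share of the class was the highest of the 7 classes with repeated values counted, but not without them, where 3 of the 8 carriers of other substrates (37.5%) passed.

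Drug and metabolite carriers of the liver took both signs. SLC17A2, of the organic anion family SLC17, had 3.44 and SLC47A1, which extrudes organic cations into bile and urine, 2.17 in the authors' deposited table. SLC22A5, the sodium-coupled carnitine importer, was at -1.91 in the authors' deposited table. The 6 SLC22 genes with unrepeated values ran from SLC22A5 to SLC22A31 at 0.87, and SLC22A4 (9.92) and the hepatic anion carrier SLC22A7 (9.50) held repeated values in the authors' deposited table. SLC10A1, the main sodium-coupled bile acid importer of hepatocytes, was not listed. Its relatives SLC10A5 (10.50), SLC10A4 (-7.53) and SLC10A3 (-7.94) all held repeated values in the authors' deposited table.

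Vitamin, choline and creatine carriers also differed among themselves. The thiamine carrier SLC19A2 had 1.52 and the folate carrier SLC19A1 1.20, but the second thiamine carrier SLC19A3 -1.96 in the authors' deposited table. The choline-carrier-like SLC44A3 and SLC44A2 had 2.20 and 1.20, and the choline carrier SLC44A1 -0.51 in the authors' deposited table. The creatine carrier SLC6A8 was at 1.99 in the authors' deposited table, with a near-identical pseudogene copy that may share its reads. The serotonin carrier SLC6A4 was at -0.95 in the authors' deposited table. The riboflavin carrier SLC52A2 (-8.75) and SLC46A3 (-8.27) held repeated values in the authors' deposited table. Among the monocarboxylate carriers, SLC16A6 had 1.85 in the authors' deposited table and the other 7 of this class, which include the lactate carriers SLC16A1 (-0.055) and SLC16A3 (0.21), lay between -0.43 and 0.68.

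The remaining 8 genes carry fatty acids, acetyl-CoA or other solutes. In HUH7 4 (50%) were positive and 4 negative, beside 60.8% positive among all genes. SLC49A3, whose substrate is poorly known, had 4.99 in the authors' deposited table, the highest unrepeated value of all members, at chromosome 4, 676826 to 691624 (GRCh38). The acetyl-CoA carrier SLC33A1 of the endoplasmic reticulum had 2.16 and SLC66A2 0.36 in the authors' deposited table. The fatty acid transport family SLC27 had 1 positive gene of 5 (20%), beside the same 60.8% of all genes. SLC27A2, a very long-chain acyl-CoA synthetase of the liver, was at -3.12 in the authors' deposited table, an 8.69-fold difference. SLC27A1 (-0.83), SLC27A3 (-0.42), the bile acid-CoA ligase SLC27A5 (-0.40) and SLC27A4 (0.61) were smaller in the authors' deposited table.

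**Figure D2:**
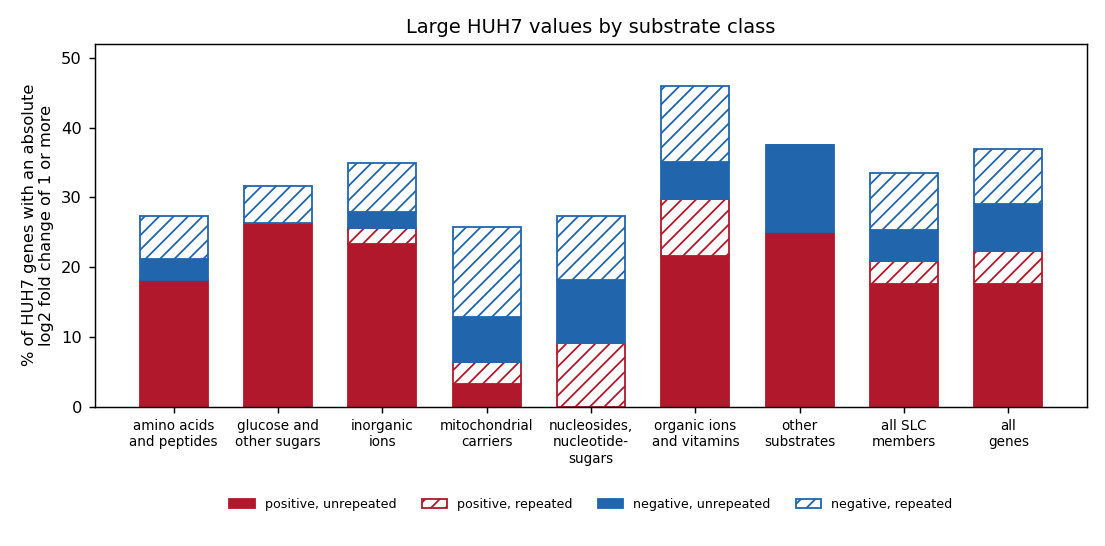
Share of HUH7 genes with a log2 fold change of at least 1 in size (percent of the listed genes of each class, of all SLC members and of all genes), stacked by sign and by whether the value is repeated. Organic ion carriers reach 45.9% and mitochondrial carriers 25.8%, beside 36.9% of all genes, and hatching marks the repeated values, which make up most of the mitochondrial bar.

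The repeated values that 21 members held lie on an arithmetic series. On the linear scale the 8 positive repeated values are whole multiples, from 3 to 10, of 242, and the 8 negative ones whole multiples, from 3 to 10, of 61.6, within 0.1%. SLC22A7 and SLC30A4 sat at multiple 3 of the positive series, SLC22A4 at 4, SLC10A5 at 6, and SLC25A27 and SLC29A4 at 7. In the negative series SLC2A10, SLC10A4 and SLC35A2 sat at multiple 3, and SLC10A3, SLC25A17, SLC25A35 and SLC38A7 at 4. SLC46A3 sat at 5, SLC39A13 and SLC52A2 at 7, SLC24A1 at 8, SLC7A1 at 9 and SLC25A30, SLC25A51 and SLC39A4 at 10. Over all genes each positive repeated value was held by 53 to 68 genes and each negative one by 85 to 110. The size of these values therefore differs between members by the step alone, and how the steps arose is not given in the sources used here.

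Genes that support or regulate the carriers gave HUH7 medians of 0.019 for 14 listed partners and gradient pumps and 0.17 for 28 listed regulators. Of the partners, 3 were at -1 or below and 0 at 1 or above, beside 14.6% and 22.2% of all genes. PDZK1, a scaffold for carriers at the apical membrane, was at -3.44, the mitochondrial channel gene VDAC3 at -1.25 and its relative VDAC2 at the repeated value -9.11 in the authors' deposited table. The heme and choline carrier FLVCR1 (0.99) and the phosphate exporter XPR1 (0.48) had the highest values of that list in the authors' deposited table. BSG, which brings the lactate carriers to the membrane, was at 0.062 in the authors' deposited table. Of the regulators, 2 were at 1 or above and 2 at -1 or below, against the same shares of all genes. The nuclear receptor gene NR0B2 (1.52), the ubiquitin ligase gene NEDD4L (1.03), ACO1 and the lysosomal regulator TFEB (-1.12) were the largest in the authors' deposited table. ATF4, which activates amino acid carriers under starvation, was at 0.24 in the authors' deposited table. The SLCO organic anion carriers, outside the naming rule, were listed for 4 of 11 genes, with SLCO2B1 at 0.50, SLCO2A1 at 0.023, SLCO4C1 at -0.32 and SLCO1B3 at -1.76 in the authors' deposited table.

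In PLC/PRF/5 the table held 93 peaks of 57 SLC genes, most of them large and positive, as in the whole column. Of these peaks 81 were positive and 12 negative, or 87.1% positive, beside 86% of all 9516 peaks. The median was 5.17 for the members' peaks and 5.44 for all peaks, and an absolute value of 1 or more was reached by 80 peaks (86.0%) beside 87.1% of all peaks. By the median of each gene's peaks 52 genes were positive and 5 negative, beside 90.3% positive among all genes, and 49 of 57 (86.0%) had an absolute value of 1 or more, beside 89% of all genes.

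The members' peaks were spread along the whole range. Below 0 lay 12, from 0 to 3 lay 19, from 3 to 6 lay 24, from 6 to 9 lay 18 and from 9 to 13 lay 20. All peaks of the column filled the same ranges with 14.0, 19.6, 20.3, 19.9 and 26.4%. Values of single members in this line thus describe places in a range that the peaks of all genes filled nearly evenly.

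How often a HUH7 member was also listed in PLC/PRF/5 differed between classes. Of the HUH7 members 24.7% had a PLC/PRF/5 peak, beside 37.0% of all HUH7 genes. The share was 44.2% for ion carriers (19 of 43), 30.3% for amino acid carriers (10 of 33), 19.4% for mitochondrial carriers (6 of 31), 16.2% for organic ion carriers (6 of 37) and 5.26% for sugar carriers (1 of 19). How listing depends on expression or depth was not tested.

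**Figure D3:**
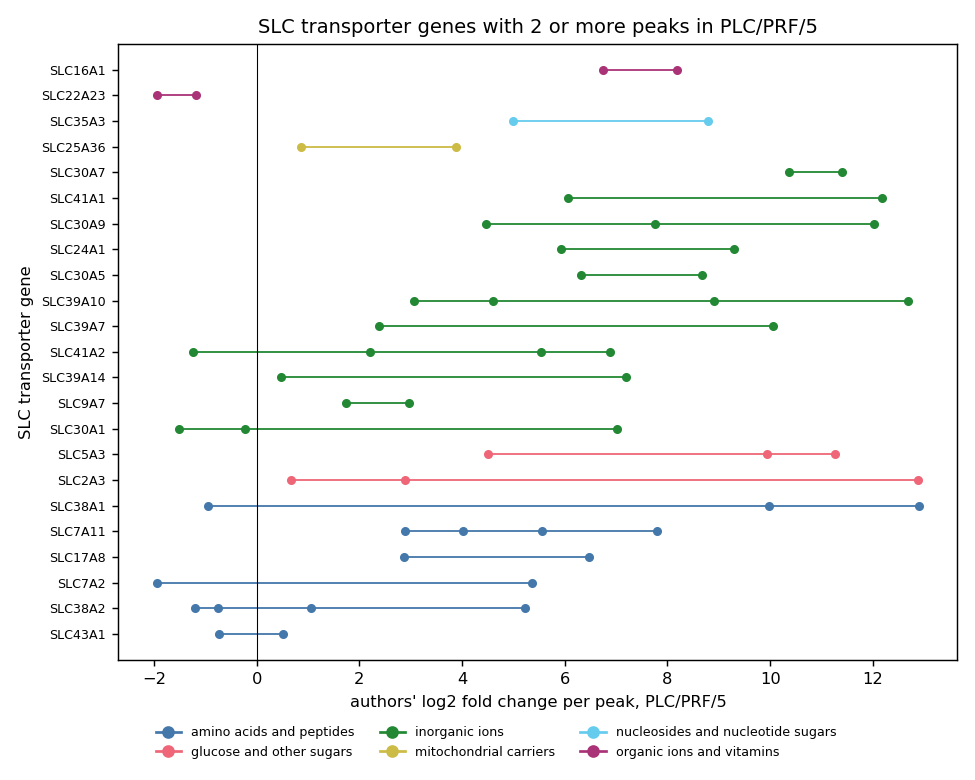
Log2 fold change of each of the 59 PLC/PRF/5 peaks of the 23 SLC genes with 2 or more peaks, as deposited by the authors, 1 row per gene, coloured by substrate class, with a line from the lowest to the highest peak. Values run from just above -2 to just below 13, and the median distance between the lowest and the highest peak of a gene is 6.11.

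Peaks of the same SLC gene lay far apart. Among the 23 members with 2 or more peaks, the distance from the lowest to the highest had a median of 6.11 log2 units, beside 6.42 for all genes with 2 or more peaks. All peaks had the same sign in 17 of the 23 (73.9%), beside 66.8% of all such genes. The highest number of peaks among members was 4.

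SLC39A10 had 4 peaks at 8.90, 3.07, 4.61 and 12.69 in the authors' deposited table, all positive like its HUH7 value. SLC7A11 had 4 positive peaks at 2.88, 5.56, 4.02 and 7.79 in the authors' deposited table. The neutral amino acid carrier SLC38A2, which cells induce when amino acids are scarce, had peaks at -0.76, 5.22, -1.20 and 1.06 in the authors' deposited table. The magnesium carrier SLC41A2 had 6.89, 5.53, -1.23 and 2.21 in the authors' deposited table. The first pair therefore had peaks of 1 sign and the second pair peaks of both signs.

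The peaks of members with 3 peaks also lay several log2 units apart. SLC30A1 had -1.50, 7.01 and -0.22 and SLC38A1, a glutamine carrier not listed in HUH7, 12.90, 9.98 and -0.96 in the authors' deposited table. SLC2A3, the high-affinity glucose transporter and likewise not listed in HUH7, had 0.68, 2.89 and 12.87 in the authors' deposited table. SLC5A3 had 4.50, 9.94 and 11.26, and SLC30A9 7.77, 4.47 and 12.02 in the authors' deposited table. The sequence of SLC2A3 is close to that of SLC2A14, so the SLC2A3 values are uncertain.

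Members with a single peak included the phosphate carrier SLC25A3 (12.17), the ascorbate carrier SLC23A2 (12.57), the bicarbonate cotransporters SLC4A4 (11.98) and SLC4A7 (9.42) and the peptide carrier SLC15A1 (9.42) in the authors' deposited table. SLC40A1 (1.83), SLC11A2 (1.64), SLC1A5 (0.24) and SLC7A1 (0.021) had low positive peaks in the authors' deposited table. The lysosomal amino acid sensor SLC38A9 was at 5.25 in the authors' deposited table. Of the 57 members 3 had no positive peak, among them SLC7A5 and SLC22A23.

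Both columns held 45 members. Of the 26 positive in HUH7, 22 (84.6%) had peaks that were all positive in PLC/PRF/5, 0 had peaks that were all negative and 4 had both signs. Of the 19 negative in HUH7, 15 (78.9%) had all peaks positive, 3 all negative and 1 both signs. Of all genes listed in both lines, 76.7% of those positive and 77.1% of those negative in HUH7 had only positive peaks. The table does not say that both columns use the same direction, and positive peaks were common to most genes of PLC/PRF/5. Across these 45 genes, which are not replicates, the HUH7 value and the median PLC/PRF/5 value had a Pearson r of 0.088 and a Spearman rho of 0.16. Over the 40 genes with unrepeated HUH7 values r was 0.072 and rho 0.16.

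Among the 3 genes negative throughout were SLC7A5 and the orphan carrier SLC22A23. In the authors' deposited table SLC7A5 had -1.93 in HUH7 and -1.41 in PLC/PRF/5, and SLC22A23 -0.12 and peaks at -1.17 and -1.95. On the positive side SLC39A10 (4.06 in HUH7), SLC41A1 (2.14 in HUH7, peaks at 12.17 and 6.06), SLC33A1 (2.16 and 0.34) and SLC26A2 (1.65 and 4.91) were positive in both columns of the authors' deposited table. SLC35A3, at -3.17 in HUH7, had positive PLC/PRF/5 peaks in the authors' deposited table, at 5.00 and 8.78. For the arginine carrier SLC7A2 the HUH7 value of 2.67 stood beside peaks at -1.95 and 5.37 in the authors' deposited table.

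**Figure D4:**
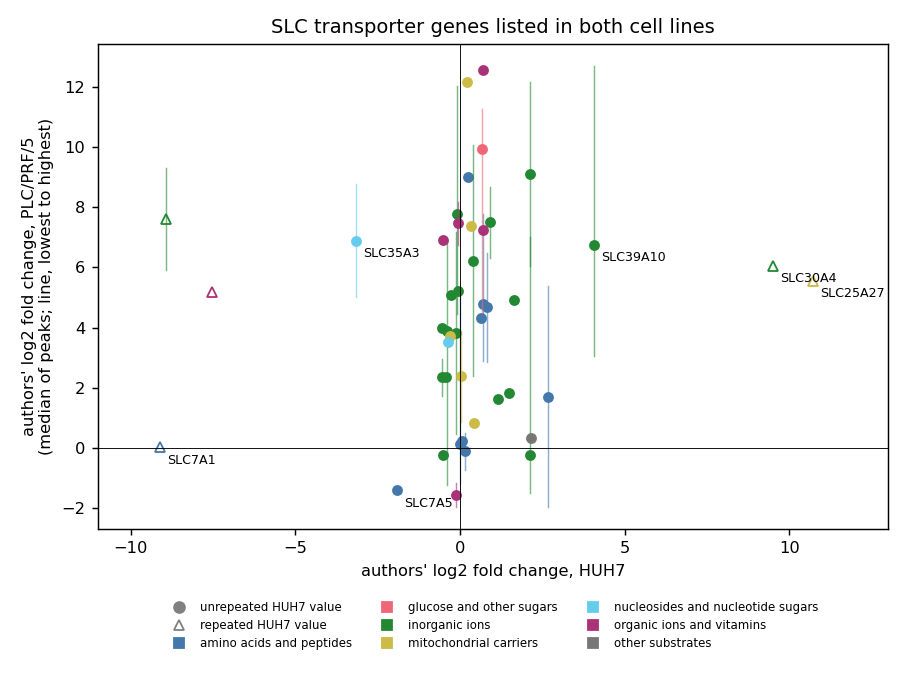
HUH7 log2 fold change against the median log2 fold change of PLC/PRF/5 peaks for the 45 SLC genes listed in both lines, as deposited by the authors, with vertical lines from the lowest to the highest peak. Open triangles are repeated HUH7 values, and SLC7A5 lies in the quadrant that is negative on both axes.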

How the data were processed

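m6A immunoprecipitate and input libraries of parental and CSTF2-knockout HUH7 and PLC/PRF/5 cells were sequenced, 8 libraries with 1 per group. Per the file headers, the authors deposited a log2 fold change called a difference, in 1 column per cell line beside gene names. The submitters' processing notes name FastQC 0.12.0 and hg38. Not given in the sources used here are the aligner, peak caller, scaling and filters, so their effect on the values is unknown.

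Members were found by name, with 0 columns of per-sample values left unmapped. Each member was put in 1 of 7 substrate classes by family, with exceptions by gene. Members, classes and the 5 other gene lists were chosen with earlier results of these data known. A PLC/PRF/5 gene took the median of its peaks. HUH7 values were called repeated when at least 10 genes shared them to 6 decimals and their size was above 1. No test was run, since no group had a replicate and counts were not analysed here. Lists are described by counts and medians beside all genes. Named genes are, per class and sign, the 4 largest unrepeated HUH7 values (2 for the other lists), all members with repeated values, the members with the most peaks and fixed carriers such as SLC2A1. The rest were named after their values were seen, to complete families, and some members are not reported here by name. The summary steps were tested on simulated data (Python 3.11.15, SciPy 1.17.1, matplotlib 3.10.9). Alternatives are given in the closing section.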

Additional observations from a re-analysis of the deposited data

Results flagged for a closer look

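Opposite signs in the cell lines were found for 15 members that were negative in HUH7 and had only positive peaks in PLC/PRF/5, among them SLC7A1, SLC35A3 and SLC24A1. These are 78.9% of the 19 members negative in HUH7 and listed in both lines, close to the 77.1% among all 1613 such genes. The difference between the lines was not tested, each line having 1 library per group, and it assumes that both columns use the same direction.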

How the results depend on the processing

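Across 75 alternatives for 20 counts, shares and medians, 61 gave values close to those reported, 13 moved further and 1 changed sign. The count of 61 HUH7 members at least 1 in size on the log2 scale became 101 at a threshold of 0.5 and 39 at a threshold of 2, and 40 without repeated values, whether these were shared by 10 or by 5 genes. Leaving out repeated values by either minimum also lowered the count from 8 to 3 for mitochondrial carriers, from 3 to 1 for nucleoside and nucleotide sugar carriers and from 17 to 10 for organic ion carriers, since fewer genes were counted. In PLC/PRF/5 the count of 49 became 80 when each peak was counted and 29 over genes with 1 peak. Adding families SLC35B to SLC35F raised the nucleotide count from 3 to 8. With classes set by family alone, the median of nucleoside and nucleotide sugar carriers was 0.47 in place of -0.030, since SLC17A9 and SLC43A3 left the class. Shares of positive members and all other class medians stayed within the 95% binomial interval of the reported value. No paired analysis was possible because each group held 1 library, and no replicate could be left out. The depth is unknown.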

Other observations

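SLC genes listed in PLC/PRF/5 spanned more of the genome than those listed in HUH7, with a median RefSeq gene span of 55143 bases for 57 genes and 33239 bases for 182 genes. All matched genes went the same way, with 41274 and 30604 bases. Within HUH7 the 21 members with repeated values had a median span of 19662 bases, the 40 other members at least 1 in size on the log2 scale 39814 bases, and the 121 members below it 34980 bases. Between members listed in both lines and those in HUH7 alone, the HUH7 median log2 fold change was 0.15 and 0.21, beside 0.12 and 0.25 for all genes split in the same way.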
